A study of Mus musculus with 6 samples.

Results

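The genes described here are 37 endoplasmic reticulum (ER) and integrated stress genes, taken by symbol from a count table of 55401 genes. All 37 were found, and 35 of them had enough counts to be tested among 17222 genes. They were grouped by role into 4 sensors and transcription factors of the unfolded protein response, 16 ER chaperones, folding enzymes and degradation factors, 9 regulators of the integrated stress response, 6 ATF4-driven amino acid and one-carbon enzymes, and 2 secreted stress hormones. RNA-seq was performed on tibialis anterior (TA) muscle of C57BL/6 mice that all carried floxed Bmal1 alleles, a core clock gene, and the inducible recombinase HSA-MCM, whose human skeletal actin promoter restricts recombination to skeletal muscle fibers. Recombination was induced in all mice with tamoxifen (2 mg daily over 5 days), so both groups are knockouts (iMSBmal1-/-) and the controls lack the muscle clock as well. The TA was injected 4 weeks later with adeno-associated virus (AAV) carrying GFP (AAV-GFP, n = 3) or mouse RBM20 (AAV-RBM20, n = 3), and muscle was taken after another 4 weeks. Tamoxifen was given at an age of 12 to 16 weeks. The paper states that its experiments used male mice kept in 12L:12D light. RBM20 is a splicing regulator of titin. The RBM20 vector used a CMV promoter, which is not specific to muscle fibers, and more of it was injected than of the control vector, so dose and transgene cannot be told apart.

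The ER folds secreted and membrane proteins, and in muscle a specialized form of it, the sarcoplasmic reticulum, stores calcium. When unfolded proteins build up, the sensors ATF6, IRE1 (Ern1) and PERK (Eif2ak3) raise chaperones such as BiP (Hspa5) through cleaved ATF6 and spliced XBP1. PERK and related kinases also phosphorylate the translation factor eIF2, which slows protein synthesis while favoring translation of ATF4, the transcription factor that drives amino acid synthesis and the feedback phosphatase subunit GADD34 (Ppp1r15a). Much of this control acts on splicing, translation and phosphorylation, which gene counts do not measure.

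Rbm20 itself averaged 166 ± 3.19 CPM (counts scaled to a library of 1000000) in AAV-GFP and 484 ± 71.0 in AAV-RBM20 (SD, n = 3 each), with every AAV-RBM20 library above every AAV-GFP library, although its log2 fold change of 1.54 ± 0.15 (SE) had an edgeR adjusted p of 0.121, and 0.0107 once same-numbered libraries were blocked as pairs. The libraries held 41400132 to 54226618 counts each. The library numbered 3 in each group stood apart from the other two. Ttn took 4.48% and 9.05% of the counts in these and 16.9% to 17.8% in the others, and mitochondrially encoded genes took 11.4% to 12.5% against 6.41% to 7.66%. All 8 skeletal muscle fiber markers were detected, summing to 112700 to 125300 CPM in AAV-GFP and 74940 to 117400 CPM in AAV-RBM20. All 8 macrophage markers were detected as well, and their sum ranged from 30.3 to 108 CPM in AAV-GFP and from 68.6 to 161 CPM in AAV-RBM20, highest within each group in library 3. The sum of 5 fibroblast markers ranged from 484 to 1020 CPM and from 836 to 1073 CPM, and that of 5 endothelial markers from 138 to 333 CPM and from 217 to 327 CPM. The 6 B and plasma cell markers, all detected, summed to 123 to 146 CPM in AAV-GFP and 46.4 to 77.1 CPM in AAV-RBM20, mostly from Ighm. Adipocyte, Schwann and erythroid lists summed to at most 12.2, 21.2 and 18.6 CPM, and 2 of the 4 adipocyte markers, Adipoq and Lep, were at 0 in at least 1 library. In bulk muscle, fewer cells of a type and less RNA per cell cannot be told apart.

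Promoters were searched for known response elements. RefSeq sequences (GRCm38.p6) of the 250 bases before the start were at hand for 33 of the 37 genes, and for 14 of the 16 chaperones; Atf6, Hyou1, Manf and Aldh1l2 had no entry. The ER stress element, CCAAT followed after 9 bases by CCACG and known as a binding site of ATF6 with NF-Y, was found on either strand in 7 members, Hspa5, Hsp90b1, Pdia6, Calr, Canx, Dnajc3 and Creld2. Of all 32851 promoters in the table, 37 held it, or 0.113%. All 7 belong to the chaperone role. Herpud1 instead held the second form of the element, ATTGG and CCACG 1 base apart, which 0.0304% of all promoters held. Stretches of 4 of these 7 promoters are shown as examples, together with that of Herpud1. The 4 were picked with their values known. The capitals mark the element, and in Calr and Creld2 it is read on the opposite strand. They lie at chr8:84847035-84847133 on the minus strand (Calr), chr11:50325760-50325858 on the minus strand (Canx), chr14:118937787-118937885 on the plus strand (Dnajc3), chr15:88819480-88819578 on the plus strand (Creld2) and chr8:94386337-94386427 on the plus strand (Herpud1).
Calr: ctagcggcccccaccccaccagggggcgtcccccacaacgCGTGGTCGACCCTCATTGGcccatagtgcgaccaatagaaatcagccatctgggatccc
Canx: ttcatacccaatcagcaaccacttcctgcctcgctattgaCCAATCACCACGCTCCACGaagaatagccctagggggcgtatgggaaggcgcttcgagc
Dnajc3: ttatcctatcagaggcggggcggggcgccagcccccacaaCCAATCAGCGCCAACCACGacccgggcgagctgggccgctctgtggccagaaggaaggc
Creld2: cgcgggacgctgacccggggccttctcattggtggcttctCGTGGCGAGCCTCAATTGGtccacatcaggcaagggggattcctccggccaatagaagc
Herpud1: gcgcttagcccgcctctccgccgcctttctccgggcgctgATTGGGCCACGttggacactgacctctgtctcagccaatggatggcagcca
The element ended 143, 126, 86 and 107 bases before the RefSeq start of Calr, Canx, Dnajc3 and Creld2, and 41 bases before that of Herpud1. In Hspa5 it ended 46 bases before the RefSeq start, in a stretch that the GENCODE gene model counts within the gene.

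The 8 letters TTGCATCA, a core of the sites that ATF4 binds with C/EBP partners, were found in 4 members, Herpud1, Atf3, Chac1 and Fgf21, and in 0.791% of all promoters. The cAMP response element TGACGTCA, which reads the same on both strands, was found in Ppp1r15a alone among the members and in 1.55% of all promoters. The E-box CACGTG, the site of the clock factor BMAL1 and of other factors, was found in Calr, Dnajb9, Fgf21 and Gdf15 and in 6.02% of all promoters. The stretches of Chac1, Fgf21 and Ppp1r15a are shown because Chac1 varied strongly between libraries, Fgf21 had no counts and Ppp1r15a had the lowest p of the members. The capitals mark TTGCATCA in Chac1 at chr2:119351009-119351096 on the plus strand and Fgf21 at chr7:45615582-45615669 on the minus strand, and TGACGTCA in Ppp1r15a at chr7:45526269-45526320 on the minus strand.
Chac1: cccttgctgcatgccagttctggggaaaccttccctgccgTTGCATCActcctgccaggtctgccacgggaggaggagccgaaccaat
Fgf21: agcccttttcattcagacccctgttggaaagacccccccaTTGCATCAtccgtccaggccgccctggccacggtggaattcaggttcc
Ppp1r15a: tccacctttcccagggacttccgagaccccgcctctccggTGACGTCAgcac
These matches describe the letters in the window and do not show binding.

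Levels of the genes spanned more than 3 orders of magnitude in AAV-GFP muscle. On the scale of CPM per kb of merged exons, which allows genes to be compared, Atf4 had the highest mean level at 46.6, ranging from 40.8 to 57.9 over the 3 libraries. The ER lumen chaperones Calr at 32.3 and Hspa5 at 31.3 followed, with ranges that overlapped each other, then Atf5 at 28.1, Herpud1 at 26.4 and Canx at 24.9 CPM per kb. The sensors were lower, with Atf6 at 5.21, Ern1 at 2.73 and Eif2ak3 at 1.26 CPM per kb, while their effector Xbp1 stood at 11.9 CPM per kb. Among the enzymes, Shmt2, the mitochondrial serine hydroxymethyltransferase, reached 6.52 CPM per kb, and Asns, Phgdh and Psat1, which make asparagine and serine, lay at 0.337, 0.313 and 0.180 CPM per kb, with overlapping ranges. Atf4 was thus the highest of the set in the same libraries in which these 3 enzymes were among the lowest. Neither hormone was readily detected.

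**Figure D1:**
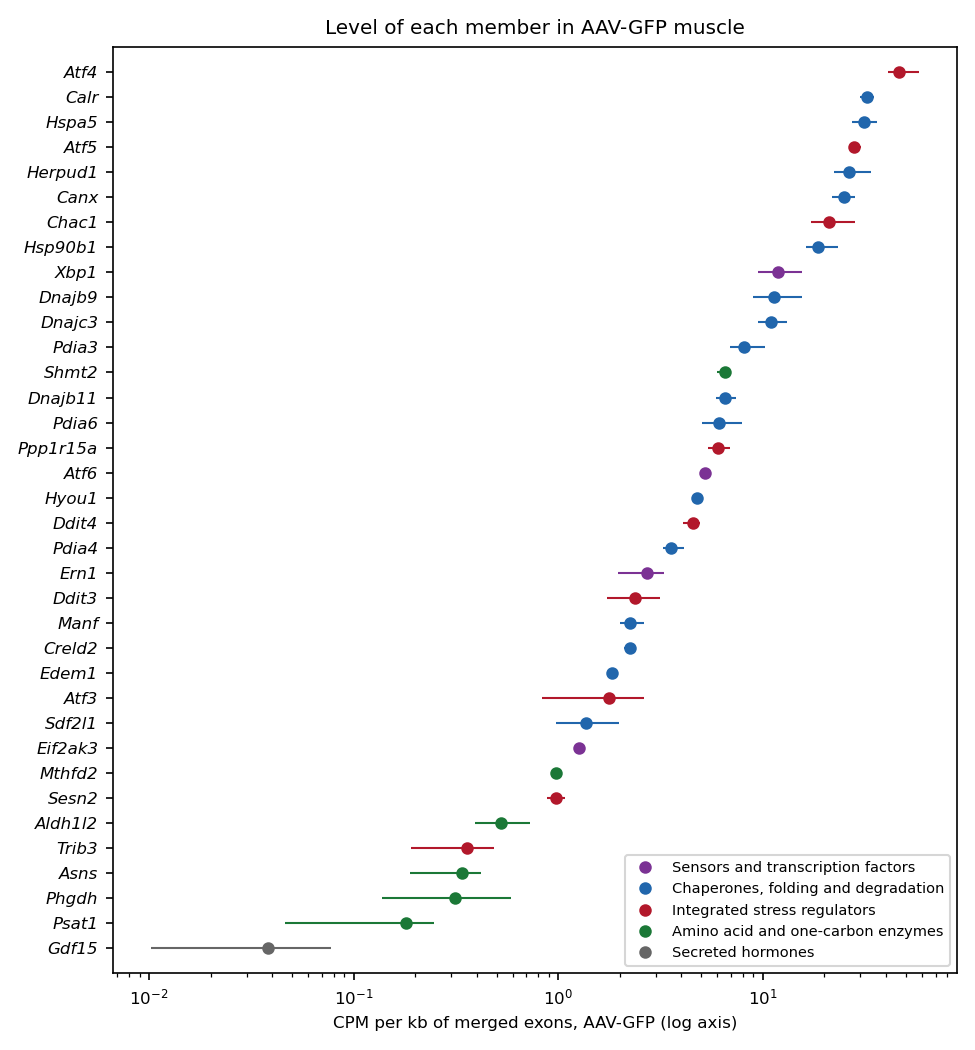
Mean level of each member in AAV-GFP muscle as CPM per kb of merged exons on a log axis, with lines from the lowest to the highest of the 3 libraries and colors for role. Atf4 is highest at 46.6 and Gdf15 lowest at 0.0381, and Fgf21, with no count, is not drawn.

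The comparison of AAV-RBM20 with AAV-GFP asked which ER and integrated stress genes differ when RBM20 is overexpressed in muscle without Bmal1. None of the 35 tested members passed the threshold. Log2 fold changes were negative for 13 of 16 chaperones and 6 of 9 integrated stress regulators, Atf4 among them, and for 1 of 4 sensors and 2 of 6 enzymes. Of all genes tested, 48.7% were negative. Without both libraries numbered 3, 12 of 16 chaperones and 5 of 9 regulators were negative. The quasi-likelihood test of edgeR, with Benjamini-Hochberg adjustment over all genes, called 0 of 17222 genes at an adjusted p under 0.05 (0%), and the lowest adjusted p of a member was 0.618. At an unadjusted p under 0.05, 3 members were lower (Ppp1r15a, Atf4 and Mthfd2), or 8.57% against 3.82% of all genes tested, and 1 was higher (Edem1), or 2.86% against 4.08%. A fit with a replicate block called 25 genes (0.145%) at the adjusted threshold, 0 of them members, although 9 members were lower at an unadjusted p under 0.05, or 25.7% against 9.92% of all genes, and 2 were higher, or 5.71% against 8.92%. DESeq2 called 75 genes (0.435%), again without a member. Without both libraries numbered 3, a fit of 2 against 2 libraries, edgeR called 690 of 17250 genes (4%). Among them were 2 members, Atf4 and Ppp1r15a, or 5.71%, close to the share of all genes.

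Counts of direction pointed the same way as the unadjusted p, but they come from the same libraries and are no separate support. Of the 35 members, 22 had a negative log2 fold change (62.9%), against 48.7% of all genes tested, and their median was -0.14 against 0.01. All AAV-RBM20 libraries lay below all AAV-GFP libraries for 8 members, or 22.9% against 9.04% of all genes, and above them for 2 members, or 5.71% against 7.71%. In same-numbered pairs of libraries, AAV-RBM20 gave the lower value in 3 of 3 for 15 members, or 42.9% against 23% of all genes, and the higher value in 3 of 3 for 4, or 11.4% against 22.2%. Without the libraries numbered 3, 19 of the 35 members were negative. Of the 17222 genes tested with all libraries, 8230 were negative in that fit, which itself tested 17250 genes. The median of the members was then -0.04, against 0.01.

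**Figure D2:**
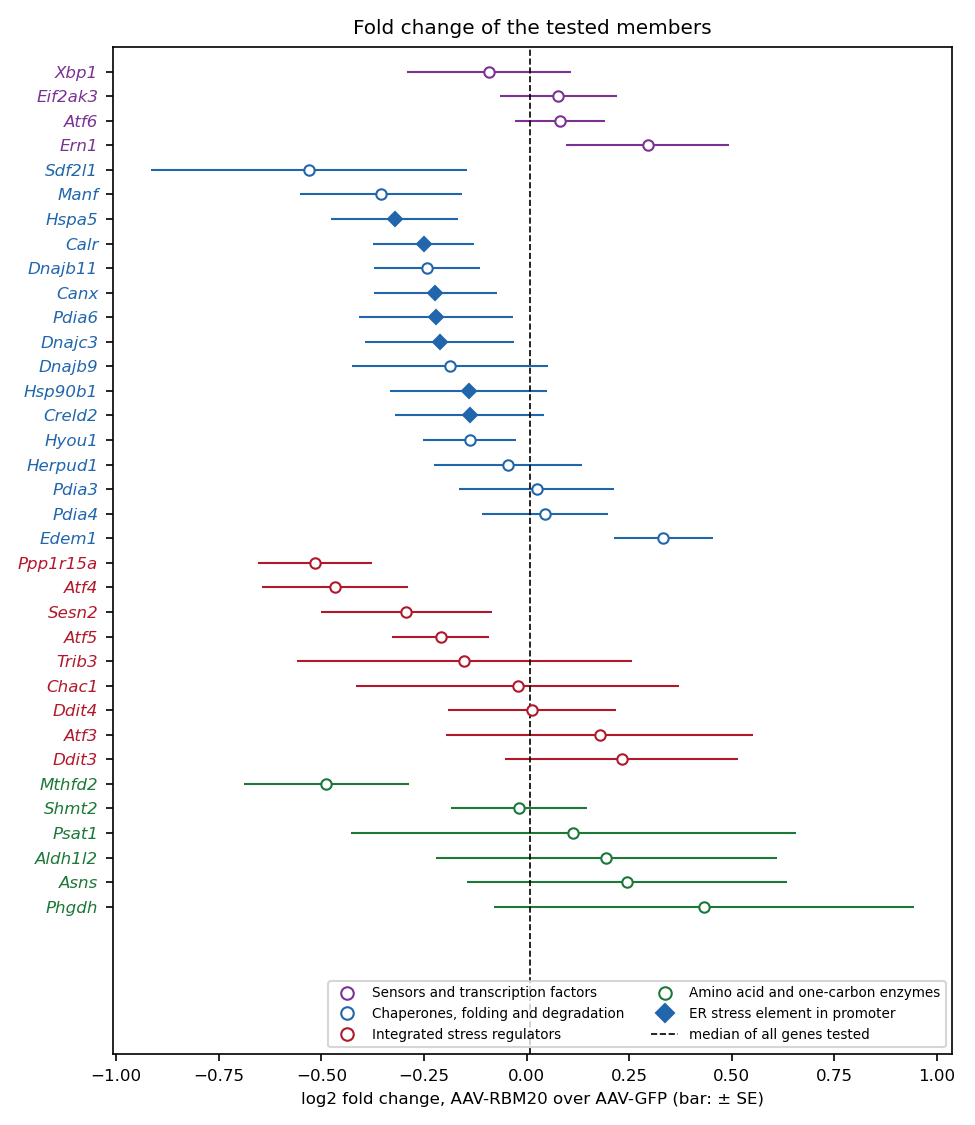
Log2 fold change of AAV-RBM20 over AAV-GFP for the 35 tested members, with bars of ± 1 SE, colors for role, filled diamonds for the 7 genes with an ER stress element and a dashed line at the median of all genes tested (0.01). The 7 diamonds all lie below 0, and Sdf2l1 and Ppp1r15a lie lowest at -0.53 and -0.52.

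Of the sensors and transcription factors, none reached an unadjusted p under 0.05 without the replicate block, and Ern1 did with it. Ern1, the IRE1 kinase and nuclease that splices Xbp1 mRNA, had the largest difference of the 4. Its levels were 26.9, 24.0 and 16.1 CPM in AAV-GFP libraries 1 to 3 and 28.9, 29.3 and 24.1 CPM in AAV-RBM20 libraries 1 to 3. Both groups were lowest in library 3 and their ranges overlapped, with a log2 fold change of 0.30 ± 0.20 (SE, edgeR adjusted p = 0.685). It was higher in AAV-RBM20 in 3 of 3 pairs, and with the replicate block the edgeR p was 0.0232 unadjusted and 0.205 adjusted. Atf6, the chaperone-inducing sensor, differed little but without overlap, with 47.1 to 48.6 CPM in AAV-GFP and 50.4 to 51.5 CPM in AAV-RBM20 (log2 fold change 0.08 ± 0.11). Xbp1 was at 34.3, 31.0 and 50.8 CPM in AAV-GFP and 33.2, 34.8 and 41 CPM in AAV-RBM20. Library 3 was the highest in each group, and the log2 fold change of -0.09 ± 0.20 turned to 0.07 without both libraries numbered 3. Eif2ak3, the kinase PERK, was at 7.31 to 7.94 CPM in AAV-GFP and 7.39 to 9.06 CPM in AAV-RBM20, and 8.05% of its exonic bases overlap a gene on the other strand.

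Of the 16 chaperones, folding enzymes and degradation factors, 13 had negative log2 fold changes, 3 positive ones and the median was -0.20. Hspa5 encodes BiP, the main Hsp70 chaperone of the ER lumen (ENSMUSG00000026864, chr2:34771970-34777547 in GRCm38). It was at 127, 116 and 154 CPM in AAV-GFP libraries 1 to 3 and at 93.8, 106 and 117 CPM in AAV-RBM20. Every AAV-RBM20 library was below its same-numbered partner, but the highest AAV-RBM20 value exceeded the lowest AAV-GFP value. It differed by a log2 fold change of -0.32 ± 0.15 (SE), a fold of 0.801 between the means (edgeR adjusted p = 0.641, or 0.171 with the replicate block). Calr, the calcium-binding lectin chaperone calreticulin, was at 86.3, 91.5 and 101 CPM in AAV-GFP and 76.2, 82.9 and 75.5 CPM in AAV-RBM20, without overlap (log2 fold change -0.25 ± 0.12). Canx, its membrane-bound relative calnexin, was at 102 to 132 CPM and 91.9 to 114 CPM, with overlap (log2 fold change -0.22 ± 0.15).

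Other co-chaperones and foldases followed with small differences. Dnajb11, Hyou1 and Creld2 were lower without overlap, with log2 fold changes of -0.24, -0.14 and -0.14. Dnajc3, Hsp90b1, Pdia6 and Manf, a secreted trophic factor that the ER retains, were lower in 3 of 3 pairs with overlapping ranges, at -0.21, -0.14, -0.22 and -0.36 on the log2 scale. Hsp90b1, the ER Hsp90 protein GRP94, shares 10.3% of its exonic bases with a gene on the other strand. In all, 10 of the 16 were lower in 3 of 3 pairs, or 62.5% against 23% of all genes. The median log2 difference of the 16 was -0.139, -0.034 and -0.257 in pairs 1 to 3. Sdf2l1, a BiP cofactor, had the largest difference of the role but a low level, with 1.25, 1.08 and 2.20 CPM in AAV-GFP and 0.678, 1.14 and 1.34 CPM in AAV-RBM20. These ranges overlapped, and its log2 fold change of -0.53 ± 0.39 had an edgeR adjusted p of 0.703. The disulfide isomerases Pdia3 and Pdia4 were at 0.02 ± 0.19 and 0.04 ± 0.15, Herpud1, a scaffold of ER-associated degradation, at -0.04 ± 0.18, and Dnajb9, a BiP cofactor, at -0.19 ± 0.24.

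Edem1, which directs misfolded glycoproteins to degradation, was the 1 member of this role that was higher without overlap (ENSMUSG00000030104, chr6:108828641-108859356). It was at 12.3, 12.2 and 11.2 CPM in AAV-GFP and 14.1, 14.9 and 16.0 CPM in AAV-RBM20, so that all AAV-RBM20 libraries were higher. Its log2 fold change was 0.33 ± 0.12 and had an edgeR unadjusted p of 0.0247 and an adjusted p of 0.618. Library 3 was the highest of the AAV-RBM20 libraries for Edem1 and the lowest of the AAV-GFP libraries.

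Most chaperones were highest in library 3. Of the 16, 14 were highest in AAV-GFP library 3 of all 6 libraries, against 5612 of the 17222 genes tested, and 11 were highest in library 3 of both groups, against 4908 of all genes. The median chaperone stood 0.37 above its mean of the 6 libraries in AAV-GFP library 3 on the log2 scale, and between -0.17 and 0.11 in the other 5. Without both libraries numbered 3 the median log2 fold change moved from -0.20 to -0.09, and 12 of 16 were negative. Without AAV-GFP library 3 alone, 9 of 16 were negative and the median was -0.08, with Hsp90b1, Pdia6, Dnajb9 and Herpud1 turned positive. In AAV-GFP library 3, the plasma cell genes Igkc and Jchain, from a cell type with an extended ER, were at 22.5 and 11.0 CPM, against 0.0958 to 0.369 CPM in AAV-GFP libraries 1 and 2 and 0.568 to 7.70 CPM in AAV-RBM20. Ighm and Mzb1 did not share that pattern: Ighm was at 88.8 CPM in AAV-GFP library 3 against 138 and 144 CPM in libraries 1 and 2, Mzb1 at 0.323 against 0.738 and 0.791 CPM, and the summed list was lowest of its group in library 3 at 123 CPM. The part of these markers in the chaperone values was not tested, nor was that of the macrophage and fibroblast markers given above.

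**Figure D3:**
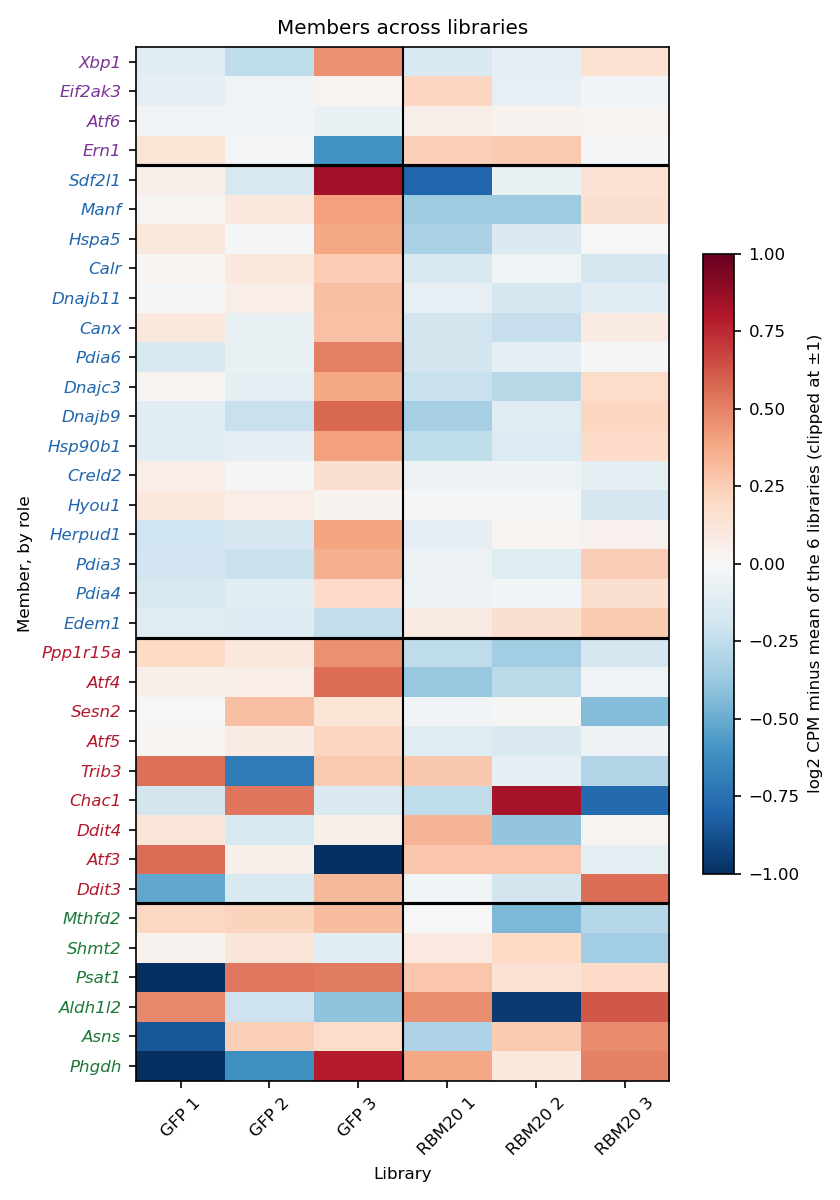
Log2 CPM of each tested member minus its mean over the 6 libraries, with members in rows by role and libraries in columns, red above and blue below the mean and values beyond ± 1 drawn at the limit. In AAV-GFP library 3, 14 of the 16 chaperone rows reach their highest value.

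The 7 genes with an ER stress element were compared with the 7 other chaperones that had a promoter sequence, a split made after their values were seen and given without a test. All 7 with the element were lower in 3 of 3 pairs, against 23% of all genes. Their median log2 fold change was -0.22, with a range from -0.32 to -0.14. Without AAV-GFP library 3, Hsp90b1 and Pdia6 of these turned to 0.0494 and 0.0136. Of the 7 without it, 4 had negative log2 fold changes, 1 was lower in 3 of 3 pairs and the median was -0.04, with a range from -0.53 to 0.33. Herpud1, which held the second form of the element, is among the 7 without it. Of the 4 members with TTGCATCA, Herpud1 among them, 3 were tested. Of these, 2 had negative log2 fold changes, 0 were lower in 3 of 3 pairs and the median was -0.02. Hyou1 and Manf, which had no promoter sequence, were also lower in 3 of 3 pairs.

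The regulators of the integrated stress response include Ppp1r15a, with the lowest p of the members, and Atf4, with the third lowest after Edem1. The median log2 fold change of the 9 regulators was -0.15, with 6 of 9 negative. Without both libraries numbered 3 it was -0.04, with 5 of 9 negative. Atf4, the central transcription factor of the response (ENSMUSG00000042406, chr15:80255184-80257541), was at 96.2, 97.1 and 136 CPM in AAV-GFP libraries 1 to 3 and at 71.3, 76.9 and 90.4 CPM in AAV-RBM20. All AAV-RBM20 libraries lay below all AAV-GFP libraries, with means of 110 ± 23.0 and 79.5 ± 9.82 CPM (SD, n = 3), a fold of 0.723. In edgeR this was a log2 fold change of -0.47 ± 0.18 (SE), at an unadjusted p of 0.0305 and an adjusted p of 0.618. With the replicate block the adjusted p was 0.0964, and without both libraries numbered 3 it was 0.0105 at a log2 fold change of -0.38.

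Ppp1r15a encodes GADD34, which recruits a phosphatase to eIF2 and so ends the response (ENSMUSG00000040435, chr7:45522916-45526268). It was at 17.0, 15.9 and 20.3 CPM in AAV-GFP and at 12.4, 11.6 and 13.2 CPM in AAV-RBM20, without overlap. The means were 17.7 ± 2.29 and 12.4 ± 0.78 CPM (SD, n = 3), a fold of 0.700. Its log2 fold change of -0.52 ± 0.14 had the lowest edgeR p of the members, 0.00586 unadjusted and 0.618 adjusted. The edgeR adjusted p was 0.095 with the replicate block and 0.0317 without both libraries numbered 3, the fit of 2 against 2 libraries that called 4% of all genes. An exact two-sided permutation test of either gene gave p = 0.1, the smallest that 3 against 3 libraries allow.

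Atf5, a related factor that also responds to mitochondrial stress, was at 52.6 to 60.3 CPM in AAV-GFP and 47.1 to 50.3 CPM in AAV-RBM20, again without overlap (log2 fold change -0.21 ± 0.12), and 4.11% of its exonic bases are shared with a gene on the other strand. Sesn2, a leucine sensor, was lower in 3 of 3 pairs at a low level, with a log2 fold change of -0.29 ± 0.21.

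The other 5 regulators had 3 positive and 2 negative log2 fold changes, and the groups overlapped for each. Ddit3, the proapoptotic factor CHOP, was at 2.98, 3.86 and 5.38 CPM in AAV-GFP and at 4.22, 3.78 and 6.36 CPM in AAV-RBM20. Both groups were highest in library 3 and overlapped (log2 fold change 0.23 ± 0.28, edgeR adjusted p = 0.819). Chac1, a glutathione-degrading enzyme with the TTGCATCA core shown above, was at 28.1, 46.3 and 28.8 CPM in AAV-GFP and at 26.8, 56.4 and 18.6 CPM in AAV-RBM20. Library 2 was the highest in both groups, and the log2 fold change was -0.02 ± 0.39. Atf3, a repressor of the same pathway, ranged from 1.81 to 5.68 CPM in AAV-GFP and from 3.60 to 4.67 CPM in AAV-RBM20 (log2 fold change 0.18 ± 0.37). Ddit4, an inhibitor of mTORC1, was at 0.01 ± 0.20 on the log2 scale, and Trib3, a pseudokinase that inhibits ATF4, was at 1.03 CPM or less in all libraries (log2 fold change -0.15 ± 0.41).

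**Figure D4:**
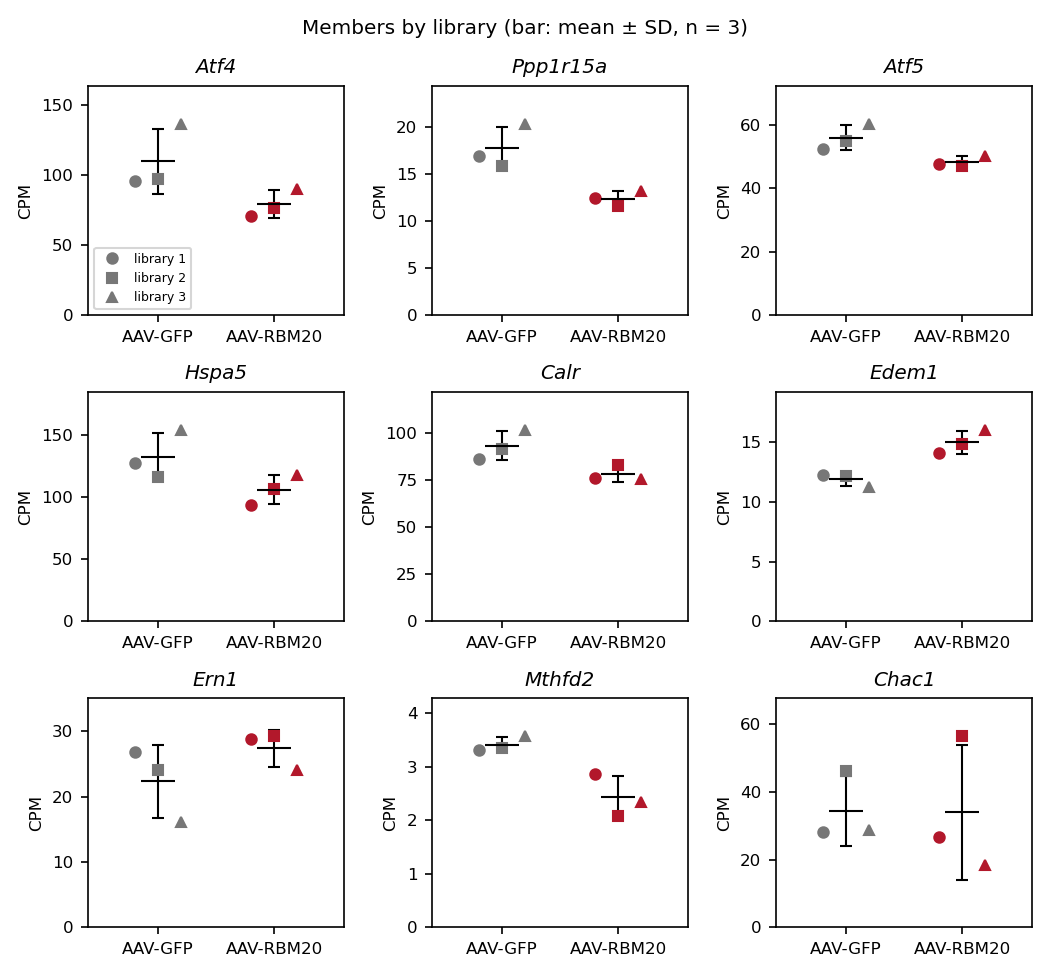
CPM of 9 members in each library, on axes that start at 0, with AAV-GFP in gray, AAV-RBM20 in red, marker shape for the library number and bars for the mean ± SD (n = 3). Atf4, Ppp1r15a, Atf5, Calr and Mthfd2 are lower and Edem1 is higher in AAV-RBM20 without overlap, while Chac1 peaks in library 2 of both groups at 46.3 and 56.4 CPM.

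The 6 amino acid and one-carbon enzymes did not move as one group, with 2 negative and 4 positive log2 fold changes and a median of 0.15. Mthfd2, a mitochondrial folate enzyme, was the lower one, at 3.32, 3.35 and 3.57 CPM in AAV-GFP and 2.86, 2.09 and 2.35 CPM in AAV-RBM20. The groups did not overlap, and the log2 fold change of -0.49 ± 0.20 had an edgeR unadjusted p of 0.0417 and an adjusted p of 0.618. Shmt2, its neighbor in the same pathway, was at 18.5 to 21.8 CPM and 15.7 to 23.0 CPM (log2 fold change -0.02 ± 0.17). Asns, which makes asparagine, was at 0.517, 1.15 and 1.10 CPM in AAV-GFP and 0.770, 1.17 and 1.36 CPM in AAV-RBM20. It was higher in AAV-RBM20 in 3 of 3 pairs with overlapping ranges (log2 fold change 0.24 ± 0.39, edgeR adjusted p = 0.865).

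Phgdh, the first enzyme of serine synthesis, was at 0.344, 0.527 and 1.46 CPM in AAV-GFP and 1.10, 0.896 and 1.19 CPM in AAV-RBM20. AAV-GFP library 3 was the highest of all 6, and without both libraries numbered 3 the log2 fold change moved from 0.43 ± 0.51 to 1.20 with an edgeR adjusted p of 0.122. Psat1, the next enzyme, gave 8 counts in AAV-GFP library 1 and 32 to 55 in the other 5 libraries (log2 fold change 0.11 ± 0.54). The median of the 6 enzymes turned to -0.03 without AAV-GFP library 1, in which Asns, Phgdh and Psat1 were all lowest. Aldh1l2, a mitochondrial folate dehydrogenase, ranged from 2.95 to 5.49 CPM and from 1.99 to 6.05 CPM (log2 fold change 0.19 ± 0.42), and 14.1% of its exonic bases overlap a gene on the other strand.

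The secreted hormones were near or at 0. Fgf21, a hormone released by stressed liver and muscle whose promoter stretch is shown above, had 0 counts in all 6 libraries, which allows up to 3 counts per library, or 0.0550 to 0.0746 CPM. Gdf15, which acts on appetite through the hindbrain, had 2, 6 and 1 counts in AAV-GFP and 6, 0 and 5 counts in AAV-RBM20, and neither gene passed the filter on low counts. These limits cover counting error only.

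Beyond the members, 101 other genes of the same pathways were examined in 9 lists, of which 99 were tested. None passed the adjusted threshold in edgeR. At an unadjusted p under 0.05, 10 were lower and 0 were higher, where 3.82% and 4.08% of all genes were. Log2 fold changes were negative for 78 of the 99, with a median of -0.14, and all AAV-RBM20 libraries lay below all AAV-GFP libraries for 26 of them (26.3%, against 9.04% of all genes) and above for 0 (against 7.71%). Without both libraries numbered 3, 72 of the 99 were negative, against 8230 of the 17222 genes tested with all libraries. The median of the 99 was then -0.06, against 0.01.

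Cytosolic tRNA synthetases, which charge tRNAs and include many ATF4 targets, stood on one side of 0. All 12 had negative log2 fold changes, from -0.31 to -0.03, and 9 of 12 were lower without overlap. Of all genes tested, 48.7% were negative and 9.04% were lower without overlap, the shares against which each list here stands. The median of the 12 was -0.19, and -0.13 without both libraries numbered 3, where 12 of 12 were still negative. All 9 genes of the eIF2 complex and phosphatase list were negative as well, from -0.63 to -0.07, with Eif2s2, the beta subunit of eIF2, lowest, and their median of -0.18 moved to -0.05 without both libraries numbered 3, where 8 of 9 were negative. The 14 genes of the translocon and glycosylation list had a median of -0.19, and 6 of them were lower without overlap, but without both libraries numbered 3 the median was -0.09 and 11 of 14 were negative. Medians of the 14 other folding genes, 12 tested degradation genes, 7 mitochondrial stress genes and 11 tested ATF4 partners and amino acid transporters were -0.07, -0.10, -0.12 and -0.04, and -0.02, -0.05, -0.04 and -0.07 without both libraries numbered 3. The 9 other sensors and activators had a median of 0.04, and the 11 other serine, one-carbon and proline enzymes one of -0.14, which moved to -0.0045 and -0.02 without those libraries.

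The lowest p of these genes was that of Gpt2, the mitochondrial alanine aminotransferase. It was at 356, 394 and 406 CPM in AAV-GFP and 197, 262 and 210 CPM in AAV-RBM20, without overlap. Its log2 fold change of -0.79 ± 0.15 had an edgeR adjusted p of 0.515, of 0.0581 with the replicate block, and of 0.00132 with DESeq2. Sec61b, a subunit of the channel through which proteins enter the ER, was at 7.95, 7.83 and 8.78 CPM in AAV-GFP and 4.16, 5.72 and 5.31 CPM in AAV-RBM20 (log2 fold change -0.69 ± 0.17, edgeR adjusted p = 0.617). In the other direction, the lowest p belonged to Slc7a1, a cationic amino acid transporter, at 0.27 ± 0.19 and to Mthfd1l, a mitochondrial formate enzyme, at 0.49 ± 0.34, both with overlapping ranges. Without both libraries numbered 3, Sec61b, Eif2s2 and Uggt1, the glycoprotein folding sensor, passed the edgeR threshold, all lower in AAV-RBM20. Their edgeR adjusted p were 0.0455, 0.0114 and 0.00693. These were 3 of the 99 genes, while 4% of all genes passed in that fit. With all libraries, the ranges of Uggt1 overlapped at an edgeR adjusted p of 0.711, and AAV-RBM20 was higher in pair 3 (log2 difference 0.16). Eif2s2 and Uggt1 were named after their values were seen.

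**Figure D5:**
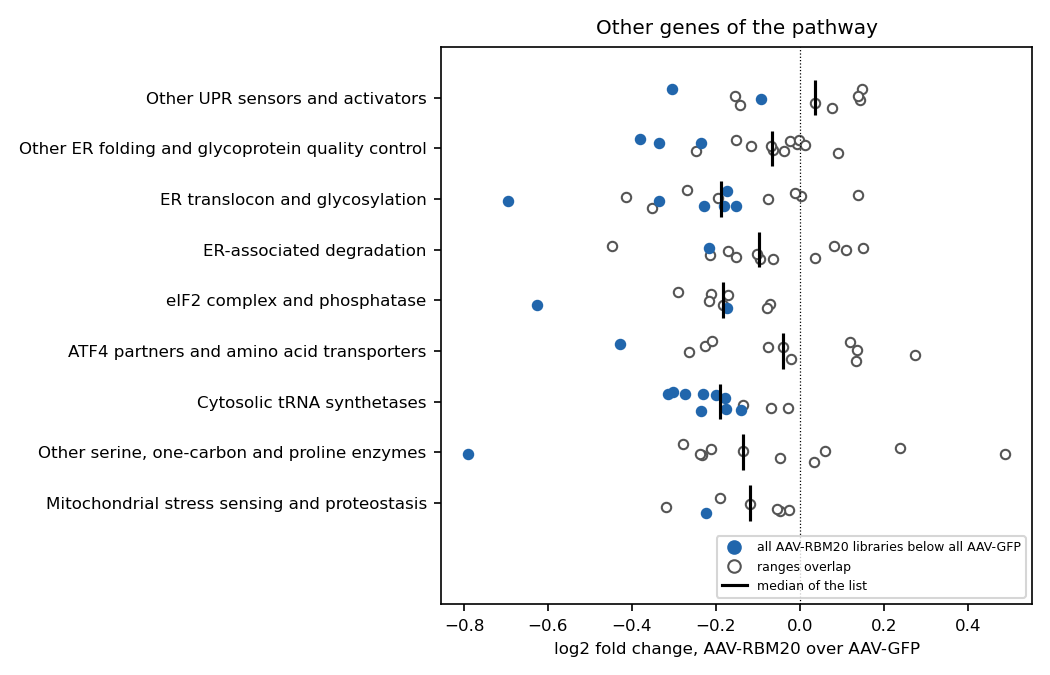
Log2 fold change of AAV-RBM20 over AAV-GFP for the 99 tested genes of 9 pathway lists, 1 point a gene, filled where all AAV-RBM20 libraries lie below all AAV-GFP libraries, with a black bar at the median of each list. The 12 tRNA synthetases all lie below 0 and 9 of them are filled.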

How the data were processed

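RNA-seq libraries were prepared with rRNA depletion from 6 TA muscle samples. The authors aligned reads with HISAT2 to mm10 and tallied them by gene using HTSeq, per the submitters' processing notes, and deposited the raw counts as whole numbers. HTSeq's strand setting and the tool versions were not given in the sources used here, so genes that overlap another are uncertain. A second table deposited by the authors, of counts divided by DESeq2 size factors, was not used. Columns were matched to samples by the descriptions, groups came from the treatment label and replicate numbers from the titles. The study's blots list both legs of some mice, 1 per vector. Whether the RNA samples were paired in that way, or came from separate animals, is not given in the sources used here, so p-values measure the spread between these samples.

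Symbols and positions came from GENCODE M21 (GRCm38), which holds 55141 of 55401 identifiers. Ddit3 has a second entry, a short fragment inside the gene that was left out. The edgeR 4.0.16 quasi-likelihood test (robust, filterByExpr, TMM) was run in R 4.3.3 on all genes, with Benjamini-Hochberg adjustment over 17222 genes at 0.05. The SE is the size of the log2 fold change divided by the square root of F. CPM used TMM-scaled library sizes, and log2 CPM a prior count of 2. Scripts were tested on simulated data. Chi-square per degree of freedom between replicates over genes of at least 50 counts was 15.1 to 545, so none was a copy of another.

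The deviation of log2 CPM from each group's mean correlated across genes at 0.418, 0.201 and 0.484 between same-numbered libraries, all above 0.1. On that basis the numbers in the titles were taken to pair the samples. The correlations do not single out this pairing for libraries 1 and 2. Library 3 stood apart in both groups, and deviations from a group mean cancel out within the group. Libraries 1 and 2 of both groups were therefore likely to deviate the same way whatever their numbers mean, so this check cannot decide how they pair. AAV-GFP 2 with AAV-RBM20 1 gave 0.216, and AAV-GFP 1 with AAV-RBM20 2 gave 0.131. The labels do not say what a shared number stands for, and the count columns of AAV-RBM20 carry other numbers than the titles. All counts over pairs and the replicate block rest on this pairing. Alternatives were upper quartile and DESeq2 size factors, no filter, the DESeq2 1.42.0 test, the replicate block, and leaving out each library or both numbered 3. Values in every library were given for Atf4, Ddit3, Xbp1, Hspa5, Asns, Phgdh, Fgf21, Gdf15, any member past the threshold or at an unadjusted p under 0.05, and the member with the largest difference in each role. Of the pathway lists, genes past the threshold and the 2 lowest p in each direction were named. Other members were added for the role they complete. The members and lists were chosen with earlier results of these data known.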

Additional observations from a re-analysis of the deposited data

How the results depend on the processing

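Of 420 values for the 35 tested members under 12 alternative fits, 381 kept their direction and their side of the threshold, 2 passed the threshold and 37 changed sign, in 17 members. The other 18 members, among them Atf4, Ppp1r15a, Hspa5, Calr, Canx, Mthfd2 and Edem1, kept their sign in all 12. The count of genes past the threshold moved from 0 to 8 with no filter, 75 with DESeq2, 25 with the replicate block and 690 without both libraries numbered 3, and was 0 to 0 when each library was left out. Members past the threshold stayed at 0 except for 2 without both libraries numbered 3 (Atf4 and Ppp1r15a), a fit of 2 against 2 libraries. Members at an unadjusted p under 0.05 moved from 4 to 2 with no filter, 11 with the replicate block and 12 without both libraries numbered 3, and ranged from 1 to 3 when a library was left out, with 1 without AAV-RBM20 library 2 and 2 without AAV-GFP library 1. Of all genes tested, 3.82% were lower and 4.08% higher at that p with all libraries, and 9.92% and 8.92% with the replicate block. For the other fits no such share is given, so their counts are not a result about the members. Other pathway genes past the threshold numbered 1 with DESeq2 (Gpt2), where 0.435% of all genes passed, and 3 without both libraries numbered 3, where 4% did. They numbered 0 to 0 with a library left out. The chaperone median ranged from -0.27 to -0.08 when a library was left out, being nearest 0 without AAV-GFP library 3, and the enzyme median from -0.0263 to 0.206, being negative without AAV-GFP library 1. When each library was left out in turn, the log2 fold changes that turned ranged from -0.0112 to 0.131 for Eif2ak3, -0.232 to 0.152 for Xbp1, -0.273 to 0.0494 for Hsp90b1, -0.086 to 0.235 for Pdia3, -0.0255 to 0.162 for Pdia4, -0.345 to 0.0136 for Pdia6, -0.338 to 0.103 for Dnajb9, -0.154 to 0.174 for Herpud1, -0.166 to 0.578 for Atf3, -0.0184 to 0.485 for Ddit3, -0.174 to 0.18 for Ddit4, -0.451 to 0.122 for Trib3, -0.604 to 0.281 for Chac1, -0.0406 to 0.455 for Asns, -0.334 to 0.408 for Psat1, -0.132 to 0.137 for Shmt2 and -0.0703 to 0.54 for Aldh1l2. Signs also turned with upper quartile factors, which shifted the median of all genes from 0.01 to 0.05, for Herpud1 (0.00419), Chac1 (0.0158) and Shmt2 (0.0229), and with the replicate block for Ddit4 (-0.0111). Without both libraries numbered 3 they turned for Xbp1 (0.0656), Herpud1 (0.156), Atf3 (-0.0421), Trib3 (0.0691), Chac1 (0.161), Shmt2 (0.0735) and Aldh1l2 (-0.228). The cause was not tested. The replicate block also brought Rbm20 past the threshold (adjusted p 0.0107), as 1 of its 25 genes, and no member. Low counts limit Sdf2l1, Trib3, Asns, Psat1 and Phgdh, near 1 CPM or below.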
